A study of Mus musculus with 33 samples.

Results

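The genes described here are 8 genes of the osteoclast lineage, Tnfsf11, Tnfrsf11a, Nfatc1, Oscar, Dcstamp, Ocstamp, Acp5 and Atp6v0d2, out of 32285 genes counted in single-cell RNA sequencing of mouse tissue. They were taken as a list by name, with earlier results of these data known. Cells near a labelled source had been tagged with biotin in the mouse over a night (SAMENT, a niche labelling method), and a sort then split each tissue into a tagged (biotin positive) and an untagged (biotin negative) fraction. The intracardiac samples, so called from the injection route on their labels, cover bone, brain, liver and lung, with 4 biotin positive and 4 biotin negative samples of each tissue. A separate set of bone samples carries the injection label IIA, with 6 biotin positive and 6 biotin negative samples hashtagged into 1 pool. The bones were femurs and tibias. The labels give no strain, age, tumour line or untreated group, so every sample, the biotin negative ones included, comes from a mouse that received an injection and the labelling substrate. The suspensions passed strainers of 70 and 40 µm before loading, a step that limits which large cells can reach a droplet; its effect was not tested. The labels do not say that samples are separate mice, so the p-values measure the spread between these samples.

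Osteoclasts are multinucleated cells of the monocyte and macrophage lineage that dissolve bone. Stromal cells, osteocytes and T cells make RANKL, the product of Tnfsf11, which binds its receptor RANK (Tnfrsf11a) on precursors and, with costimulation through receptors such as Oscar, switches on the transcription factor Nfatc1. Precursors then fuse with the help of Dcstamp and Ocstamp and make the enzymes and proton pumps of resorption, among them Acp5 (tartrate-resistant acid phosphatase) and Atp6v0d2 (a subunit of the vacuolar proton pump).

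The 8 genes did not behave as 1 myeloid programme. A few cells, 31 of 55366 intracardiac and 53 of 22362 IIA cells, mostly in biotin positive fractions, held most of the Oscar UMIs in both sets and most of the Dcstamp, Ocstamp and Acp5 UMIs in IIA bone. These cells were picked by a rule on the same genes, set after the values had been seen, so such shares are partly built in. Tnfrsf11a was found across macrophages and microglia, most intracardiac Atp6v0d2 lay in alveolar macrophages, and intracardiac Nfatc1 had its highest pooled level in NK cells. Tnfsf11 was at or near 0 in every myeloid class and was found in T cells and, in IIA bone, in stromal cells.

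The start regions of 3 of the genes are shown because their RNA distributed so differently: Oscar lay mostly in the few cells named above, Acp5 was shared between those cells, macrophages and lymphocytes, and Tnfrsf11a was spread over macrophages. Each is 300 bases of RefSeq sequence on GRCm38.p6, from 250 before to 50 after a transcript start, read on the gene's strand. Capitals mark GGAAA on either strand (TTTCC on the printed one), the core bound by NFAT proteins.
Oscar, chr7:3616108-3616407, minus strand: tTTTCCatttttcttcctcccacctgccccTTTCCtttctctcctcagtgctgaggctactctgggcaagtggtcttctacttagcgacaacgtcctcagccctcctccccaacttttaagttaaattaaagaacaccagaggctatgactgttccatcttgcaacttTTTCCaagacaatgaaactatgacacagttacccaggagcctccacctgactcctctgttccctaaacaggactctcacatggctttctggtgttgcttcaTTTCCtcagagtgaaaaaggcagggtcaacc
Acp5, chr9:22130549-22130848, minus strand: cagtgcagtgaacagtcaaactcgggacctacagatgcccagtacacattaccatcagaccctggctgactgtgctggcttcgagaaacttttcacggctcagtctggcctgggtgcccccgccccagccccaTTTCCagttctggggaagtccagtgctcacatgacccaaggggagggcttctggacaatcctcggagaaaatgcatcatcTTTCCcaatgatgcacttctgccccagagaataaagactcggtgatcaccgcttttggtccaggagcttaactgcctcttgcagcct
Tnfrsf11a, chr1:105780473-105780772, plus strand: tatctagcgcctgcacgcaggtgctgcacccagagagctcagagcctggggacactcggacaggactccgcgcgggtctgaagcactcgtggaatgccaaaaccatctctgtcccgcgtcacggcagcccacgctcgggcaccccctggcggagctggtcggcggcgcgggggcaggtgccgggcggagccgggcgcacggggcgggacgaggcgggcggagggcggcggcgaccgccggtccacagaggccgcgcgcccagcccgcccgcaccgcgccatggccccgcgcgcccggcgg
GGAAA occurred 4 times in the Oscar window, 2 times in this Acp5 window (1 time at each of the other two listed Acp5 starts) and not in the Tnfrsf11a window. It occurs in 61.3% of 32851 RefSeq promoters of the same length. GAGGAA, a core bound by PU.1, occurred 2 times in the Oscar window and in 28.3% of all promoters. GAGGAA and GGAAA share 4 letters and can overlap. TGANTCA (AP-1) and CACGTG (the MITF family E-box), found in 7.81% and 7.15% of promoters, were in none of the 3 windows. The Acp5 window lies inside the annotated gene (chr9:22126727-22135711), at 1 of 3 listed starts. These are letter matches in a window and not measured binding sites.

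Sums over all kept cells of a sample, as CPM (a gene's share of all UMIs of the sample, scaled by the same factor everywhere), give the level of each gene per sample; in such sums fewer cells of a type and less RNA per cell cannot be told apart. The ligand gene stands first in the pathway. Tnfsf11 had 384 UMIs in the intracardiac cells and 117 in the IIA cells. In biotin negative samples it ranged from 0.0669 to 0.332 CPM in bone, from 0.252 to 0.633 in liver, from 0.709 to 5.30 in brain and from 0.850 to 6.99 in lung. Bone lay below brain and lung in every sample and overlapped with liver. The level in biotin positive bone was 1.02, 1.88, 0.0701 and 0 CPM in replicates 1 to 4, and that in biotin positive lung at most 0.454.

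By class of cells, Tnfsf11 was a lymphocyte and stromal gene. Classes were built by clustering and named from marker genes, so their levels are given as descriptions. Intracardiac T cells held 314 of the 384 UMIs, at 18.0 CPM, and T cell cluster 6 reached 48.8 CPM. Among T cells with at least 10 cells a sample, the mean was 4.39 ± 4.09 CPM (SD, n = 4) in biotin negative bone, 31.8 ± 14.9 (n = 4) in brain, 8.88 ± 3.81 (n = 4) in liver and 22.8 ± 11.4 (n = 4) in lung. T cells were 5.75% ± 4.60 of cells in biotin negative bone and 20.6% ± 10.4 in lung (n = 4 each). In biotin negative samples both the share and the level were thus lower in bone than in lung. The mean level in biotin positive T cells was 19.53 ± 13.73 CPM (n = 4) in bone, 26.05 ± 13.58 (n = 4) in brain, 7.757 ± 10.97 (n = 2) in liver and 9.038 ± 7.896 (n = 3) in lung. Cluster 6 held 12% of the T cells of biotin negative bone, against 40.5%, 30.7% and 43.6% in brain, liver and lung, so the level of bone T cells and their mix of clusters cannot be told apart. In IIA bone the stromal or osteoblast-lineage class held 72 of 117 UMIs at 16.7 CPM, and 71 of those 72 were in biotin positive samples. Macrophages held 2 UMIs in the intracardiac cells and 1 in the IIA cells, and the IIA monocytes held 0 in 1815 cells.

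The receptor gene was a gene of macrophages and microglia. Tnfrsf11a had 3601 intracardiac UMIs, and its pooled level was 66.9 CPM in microglia, 56.5 in macrophages, 16.1 in alveolar macrophages, 14.2 in dendritic cells, 6.60 in monocytes and 0.245 in neutrophils. After thinning each cell to 2000 UMIs, 12.3% of microglia, 10.9% of macrophages and 1.5% of monocytes had a UMI, against 0.0563% of neutrophils; unthinned the shares were 30.7%, 27.3%, 5.28% and 0.191%. Median depths were 5168, 5575, 7749 and 7467 UMIs, so neutrophils, the class that should lack the gene, were not shallower. Within macrophages, the mean was 50.6 ± 1.41 CPM (n = 2) in biotin positive bone, 78.0 ± 10.5 (n = 4) in brain, 75.1 ± 3.99 (n = 3) in liver and 42.2 ± 6.37 (n = 4) in lung. The biotin negative macrophages of the same tissues averaged 30.1 ± 2.54 (n = 3), 37.6 ± 8.08 (n = 4), 53.3 ± 10.8 (n = 4) and 26.3 ± 10.9 (n = 4). The ranges of the fractions did not overlap in any of the 4 tissues, the samples with fewer than 10 macrophages left out. The fractions drew on different macrophage clusters in 3 of the tissues, however, and the pooled Tnfrsf11a level was 46.1 CPM in cluster 15, 74.0 in cluster 28 and 84.8 in cluster 30. Cluster 15 held 83.4% of untagged and 11.4% of tagged brain macrophages, where cluster 30 went from 15.6% to 88.4%. It held 91.2% and 20.8% in liver and 75.5% and 33.5% in bone, where cluster 28 took most of the tagged macrophages. Only in lung was cluster 15 nearly the whole class in both fractions (97.9% and 98.5%). Outside lung, level and the mix of clusters therefore cannot be told apart. In IIA bone, macrophages had 93.8 CPM and monocytes 17.9.

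Nfatc1, the master regulator of osteoclast formation and also an activation factor of lymphocytes, was broad. Its pooled intracardiac level was 142 CPM in NK cells, 95.9 in B cells, 83.2 in T cells, 74.3 in microglia, 48.8 in alveolar macrophages, 35.1 in monocytes, 32.3 in macrophages and 29.1 in neutrophils. The IIA T cells reached 192 CPM and the IIA macrophages 140, or 58.0 without the strongly expressing cells described below. Its sample sums stayed between 16.6 and 73.8 CPM over all 32 intracardiac samples.

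Acp5 showed several sources. Its intracardiac level was 272 CPM in macrophages, with 614 in cluster 28, whose leading genes Cd5l, Vsig4 and Clec4f are found in liver macrophages. That cluster held 79% of the tagged liver macrophages and also 65.6% of the tagged bone macrophages, so it is not of liver alone. Acp5 was 213 CPM in alveolar macrophages, 172 in B cells and 124 in T cells, against 35.1 in monocytes, 2.21 in neutrophils and 2.05 in microglia. After thinning, 28.5% of macrophages, 27.9% of B cells and 22.4% of T cells had an Acp5 UMI, against 0.417% of neutrophils; unthinned these were 42.9%, 32.5%, 32.9% and 1.71%, at median depths of 5575, 2198, 3172 and 7467 UMIs. B and T cells were therefore far above the background class, and Acp5 RNA in a summed sample is no measure of osteoclast-lineage cells alone. The class of stem or progenitor cells had the highest pooled level, 981 CPM, which was 29.9 CPM without 24 of its 691 cells. In IIA bone, macrophages had 1254 CPM and 160 without 53 of their 1183 cells.

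Atp6v0d2 belonged to the alveolar macrophage in the intracardiac data. That class had 825 CPM, against 44.3 in macrophages, 5.75 in microglia and 2.19 in monocytes. Thinned, 76.3% of alveolar macrophages had a UMI against 0.439% of neutrophils, and unthinned 97.0% against 1.28%, at median depths of 8452 and 7467 UMIs. Atp6v0d2 was 1 of the 12 markers used to name that class, so its place there is partly by construction. In IIA bone no cluster took that name, and 88.1% of the Atp6v0d2 UMIs lay in the 53 strongly expressing cells. The macrophage cluster into which these cells fell had 171 CPM with them and 18.2 without.

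The fusion genes and Oscar were rare. Dcstamp and Ocstamp had 436 and 1017 UMIs in the intracardiac cells, and Oscar 98. Outside the few strong cells, Dcstamp and Ocstamp were highest among intracardiac classes in dendritic cells, at 14.7 and 15.1 CPM. Biotin positive lung replicate 1 held 85 of the 155 Dcstamp UMIs of this class, which had 7.68 CPM without it, and 23 of the 159 Ocstamp UMIs (14.9 CPM without it). Intracardiac macrophages had 2.20 CPM of Dcstamp and 7.76 of Ocstamp without those cells, and monocytes 0.134 and 3.51. In IIA bone macrophages were the highest class for both genes, at 23.1 and 6.80 CPM without those cells. Thinned, 2.13% and 2.75% of dendritic cells had a Dcstamp or an Ocstamp UMI (unthinned 6.91% and 9.63%, median depth 8389), against 0.0113% of neutrophils for Dcstamp and 0 of 8881 for Ocstamp, which allows a share of up to 0.0338% (unthinned 0.0106% and 0.0425%). Oscar had no UMI in 1173 dendritic cells, which allows a share of cells with a UMI of up to 0.256%.

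**Figure D1:**
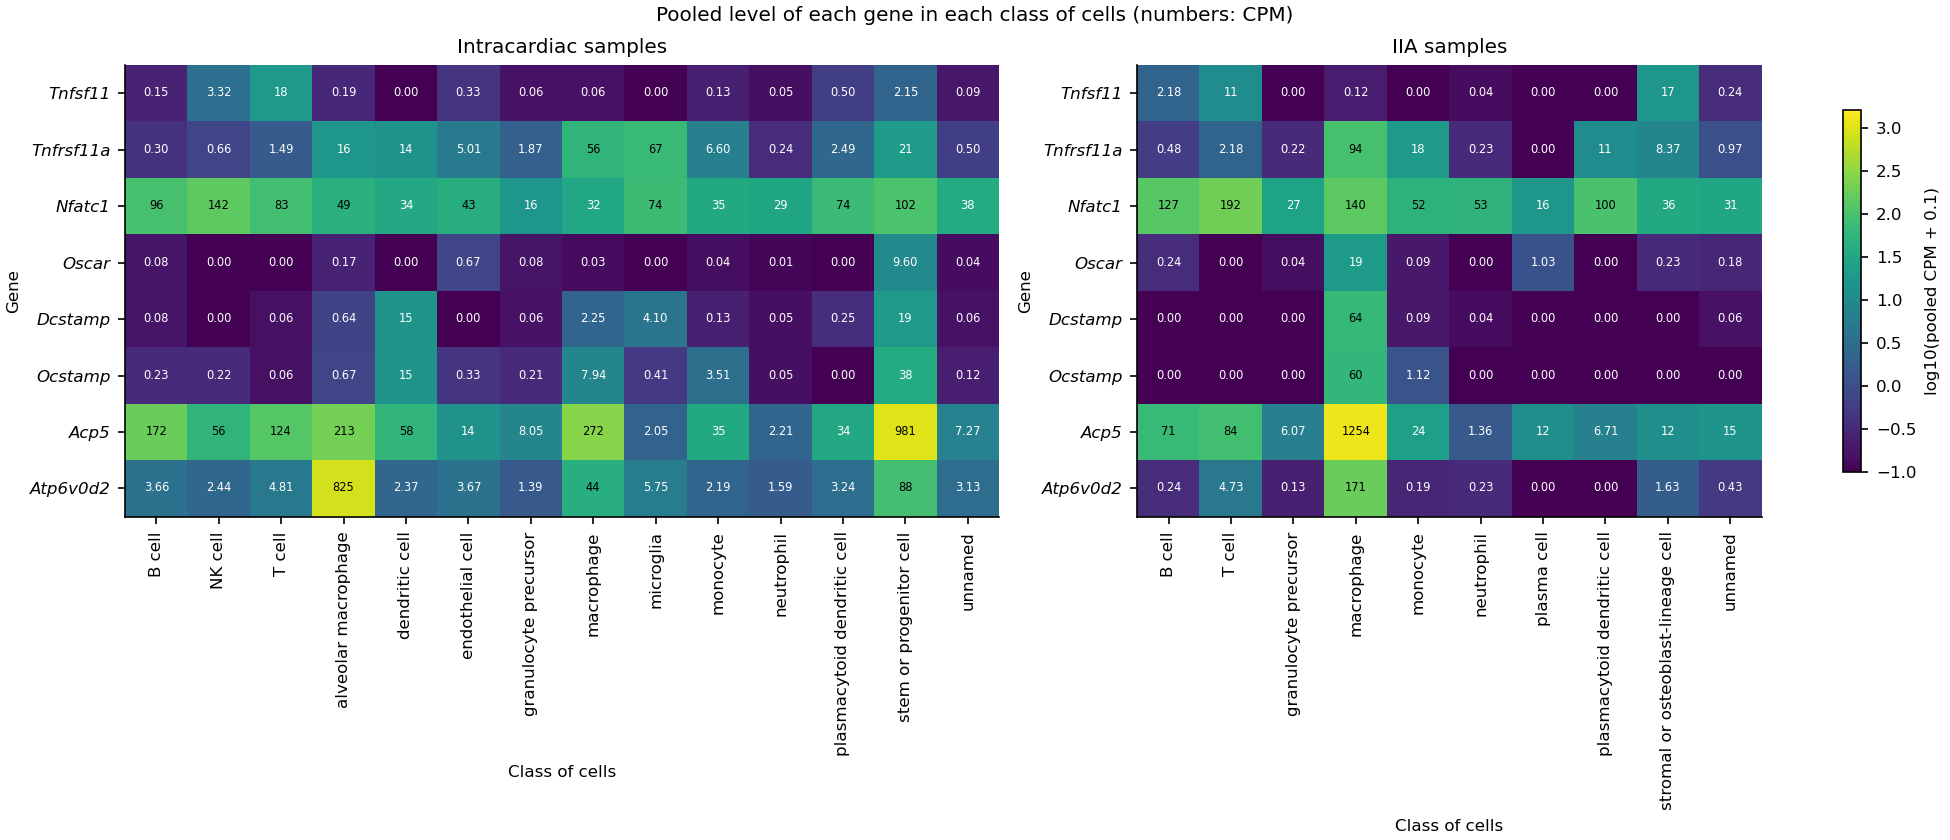
Pooled level (CPM, printed in each square; colour is log10 of CPM plus 0.1) of the 8 genes in each class of cells, intracardiac samples on the left and IIA samples on the right. Tnfsf11 is brightest in T cells and IIA stromal cells, Atp6v0d2 in alveolar macrophages (825 CPM), and the fusion genes, Oscar and Acp5 in the classes that hold the few strongly expressing cells.

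Those cells were described with a rule set after the values had been seen: at least 20 Acp5 UMIs and at least 1 UMI of Dcstamp, Ocstamp or Oscar. The rule gave 31 intracardiac and 53 IIA cells, called osteoclast-gene-high cells here, and since it uses the measured genes their levels have no test. Leaving these cells out takes Acp5 out of the samples that hold them by construction, so differences without them are given as values only, and nothing is read from whether they pass a threshold. Near the rule's limits, 6 intracardiac and 3 IIA cells inside it had 20 to 29 Acp5 UMIs, and 32 and 3 cells with a fusion gene or Oscar had 10 to 19. Another 35 intracardiac and 5 IIA cells had 20 or more Acp5 UMIs and none of the 3 genes.

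Biotin positive bone replicate 2 held 13 of the 31 intracardiac cells, biotin positive lung replicates 1, 2 and 4 held 7, 1 and 4, biotin positive liver replicate 2 held 3, and biotin positive bone replicate 1, biotin negative bone replicate 3 and biotin negative brain replicate 1 held 1 each. Of the 53 IIA cells, 38 were in biotin positive replicate 3, 12 in replicate 1, 1 each in replicates 2 and 5, and 1 in biotin negative replicate 3. The biotin negative fractions held 2 and 1 of them, in 38209 intracardiac and 17473 IIA cells. The cells are therefore from few samples: biotin positive bone replicates 3 and 4, and IIA biotin positive replicates 4 and 6, had none. The 3 liver cells had 34 to 95 UMIs of the complement gene C1qa, no Ctsk UMI and, unlike the other 28, no Nfatc1 UMI. C1qa was also found in 13 of the others, with up to 184 UMIs in a lung cell.

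In most of these cells the genes of resorption were abundant, but the intracardiac cells were mixed. Ctsk had a UMI in 24 of the 31, with a range of 0 to 749 UMIs, and Mmp9 in 25, with 0 to 452. Median UMIs per cell, intracardiac and IIA, were 103 and 132 for Acp5, 119 and 131 for Ctsk (cathepsin K, a collagen-degrading protease of osteoclasts), 48 and 185 for Mmp9 (a gelatinase), 17 and 19 for Atp6v0d2 and 12 and 12 for Nfatc1. Ocstamp had medians of 5 and 5, Dcstamp 2 and 5, and Tnfrsf11a 3 and 4. Calcr, the calcitonin receptor gene of mature osteoclasts, had a UMI in 5 and 4 cells, and Tnfsf11 in none. The median depth was 29171 and 17164 UMIs, several times that of most classes.

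The rule picks cells by Acp5, Dcstamp, Ocstamp and Oscar, so the shares of these genes are partly built in. The cells held 77.6% of all Oscar UMIs in the intracardiac data and 94.2% in IIA bone. The shares were 32.3% and 68.0% for Dcstamp, 30.3% and 88.1% for Ocstamp, 23.1% and 78.3% for Acp5 and 36.5% and 91.7% for Ctsk. For Atp6v0d2 they were 1.98% and 88.1%, most of the intracardiac remainder lying in alveolar macrophages. Tnfrsf11a (3.47% and 23.7%) and Nfatc1 (3.36% and 11.96%) lay mostly outside them.

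Their class names need care. In the intracardiac data 24 of the 31 fell in cluster 14, named stem or progenitor cell from Gata2, Cpa3 and other genes, yet Cd34 had no UMI in any of the 31 and Kit had 1 UMI in 1 cell. The others fell in macrophage clusters 15 and 28. In IIA bone all 53 fell in macrophage cluster 0, where C1qa had 1 UMI in 1 of the 53. Neither name describes the high cells of clusters 14 and 0 well. All 84 cells stay counted in their classes in the levels, shares and fits, except where values without them are given. The sample tag with the most counts was the sample's own in all 84 cells, at least 8.49 times the next in intracardiac cells and 3.08 times in IIA cells. Cells had been assigned to samples by these same tags, in IIA at 3 times the next or more. The match is therefore built in and does not test where the cells came from. A doublet caller set to mark 5% of cells marked 7 of the 31 and 6 of the 53; with depths this high the part of doublets was not tested further.

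**Figure D2:**
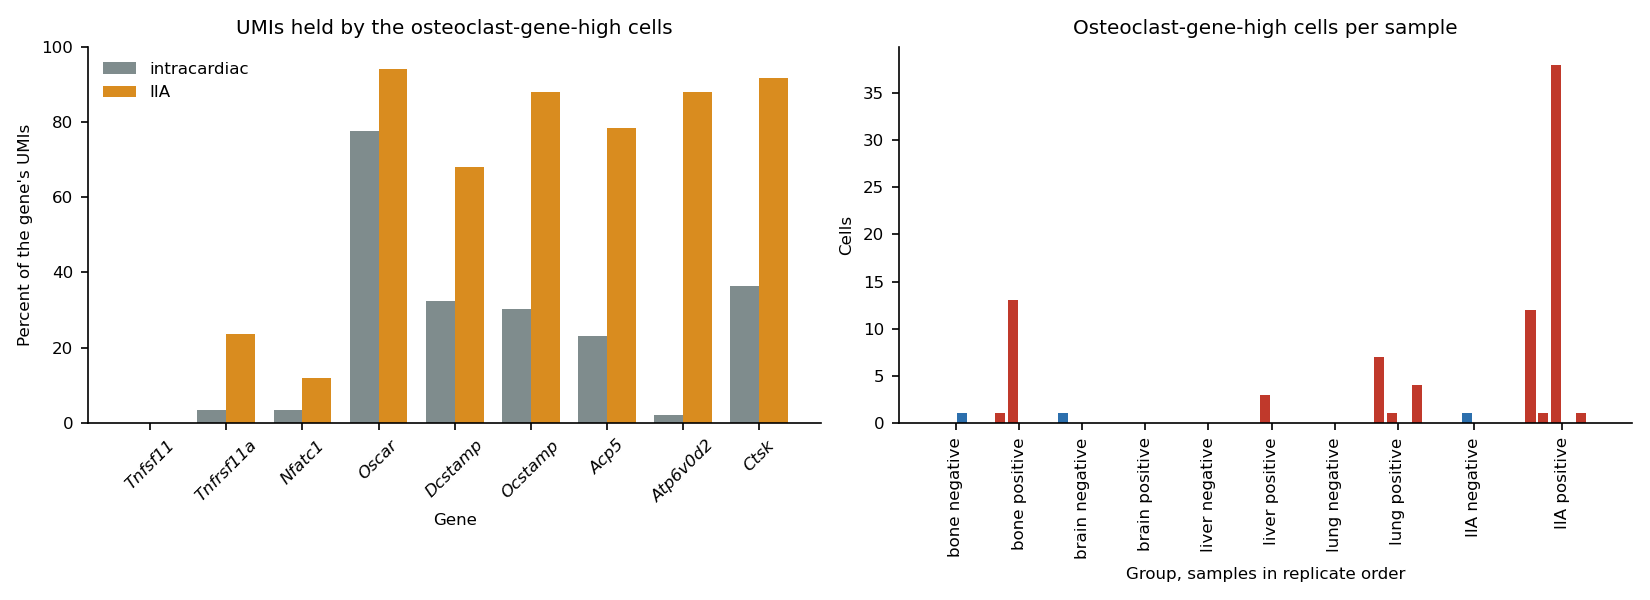
Left, percent of all UMIs of each gene (x axis) that lay in the osteoclast-gene-high cells, intracardiac in grey and IIA in orange; right, the number of such cells in each sample, in replicate order within each group, biotin negative in blue and positive in red. Oscar reaches 77.6% and 94.2%, Tnfsf11 is at 0, and 1 bone sample (13 cells) and 1 IIA sample (38 cells) stand above the others. The cells were picked by Acp5, Dcstamp, Ocstamp and Oscar, so the bars of these genes are partly by construction.

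In intracardiac bone, the first question was whether the genes differ between cells tagged in the niche and untagged cells. No gene passed: edgeR's quasi-likelihood test called 0 of 12533 genes (0% called) at an adjusted p under 0.05, with 983 at an unadjusted p under 0.05, and DESeq2 called 53, neither of the 2 members for which it gave an adjusted p among them. With the multiplexing pool that same-numbered intracardiac samples shared as a block, edgeR called 12 genes and no member. Acp5 was 35.8, 590, 9.33 and 7.15 CPM in biotin positive replicates 1 to 4, and 38.0, 19.2, 13.4 and 6.91 in the biotin negative ones. Only replicate 2 stood above the biotin negative range, and the fractions overlapped otherwise. The fitted log2 difference was 2.85 ± 1.27 (SE; edgeR adjusted p = 0.615).

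Ocstamp followed the same pattern, at 1.12, 22.5, 0 and 0 CPM against 0.568, 0.673, 0.343 and 0.0892. Atp6v0d2 was 2.55, 64.6, 0.912 and 0.146 CPM against 2.27, 6.58, 1.29 and 0.357. Tnfrsf11a was 4.94, 19.5, 0.281 and 0.511 against 4.50, 2.09, 1.26 and 0.736, and Nfatc1 33.9, 62.9, 16.6 and 18.0 against 45.5, 30.4, 27.1 and 22.7. In each of these genes replicate 2 was the highest positive sample. Without that sample the log2 differences were -0.22 for Acp5, -0.17 for Ocstamp, -1.29 for Atp6v0d2 and -0.22 for Tnfrsf11a, against 2.85, 3.54, 2.38 and 1.38 with it. Without the osteoclast-gene-high cells they were 0.50, 0.57, 0.94 and 0.95.

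Dcstamp and Oscar were too low for the fit and reached 8.06 and 5.85 CPM in biotin positive replicate 2, with at most 1.32 and 0.210 in the other 3. In biotin negative bone Dcstamp had 2 UMIs and Oscar 3 over all 4 samples. The macrophage share of that replicate was 37.4%, against 12%, 1.13% and 0.694% in replicates 1, 3 and 4 and at most 0.661% in biotin negative bone; its part in the sample sums was not tested.

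Counting only monocytes and macrophages of bone (5 untagged and 8 tagged cells of the alveolar macrophage class among them), edgeR called 12 of 9659 genes (0.124%) and none of the 3 members tested (110 genes and no member with the pool as a block). Tnfrsf11a had a log2 difference of 1.78 ± 0.47 (adjusted p = 0.157) and Acp5 of 1.6 ± 0.43 (adjusted p = 0.161), positive over negative, and Nfatc1 of -0.23. DESeq2 called Acp5 (1.57, adjusted p = 0.0383). In that set the macrophage share of the phagocytes differs between fractions as well, so level and composition cannot be told apart.

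**Figure D3:**
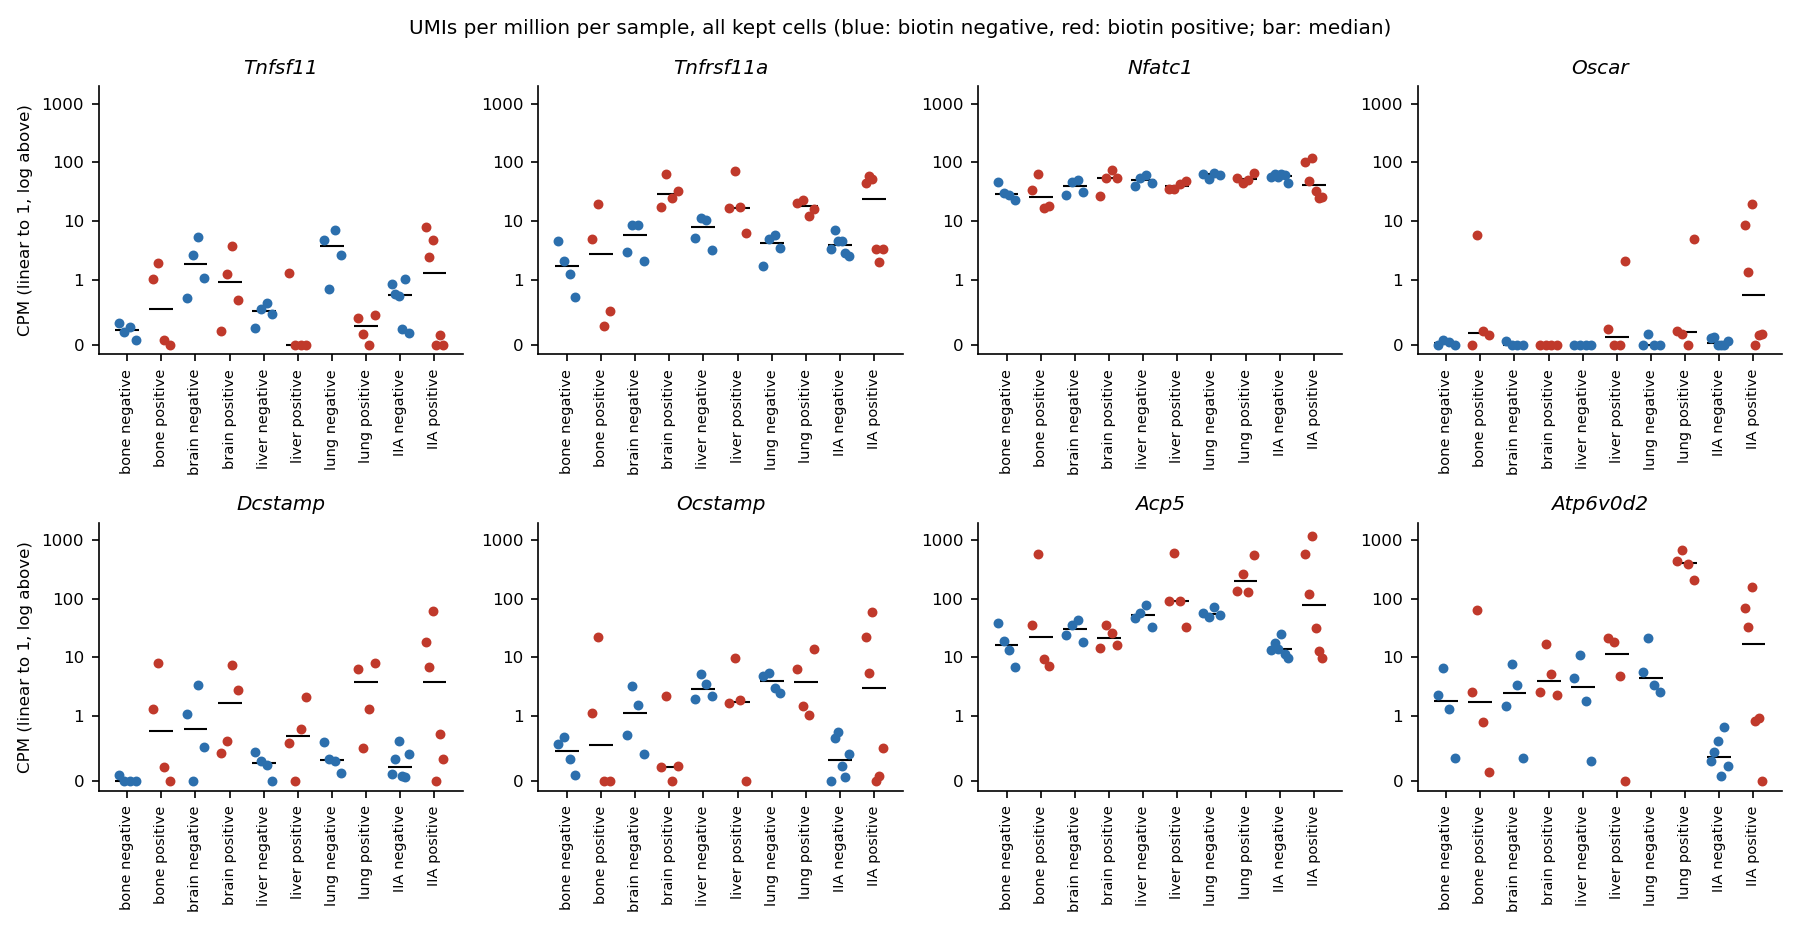
CPM of each gene in each sample over all kept cells (y axis linear to 1 and logarithmic above), by tissue and fraction on the x axis; blue points are biotin negative, red biotin positive, bars are medians. A single bone positive sample stands far above its group for Acp5 (590), Ocstamp (22.5) and Atp6v0d2 (64.6), and the lung positive samples all lie at 208 or more for Atp6v0d2.

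The list of 12 osteoclast markers, summed, did not separate the fractions in bone: it ran from 204 to 2218 CPM in biotin positive and from 395 to 833 in biotin negative samples. All 12 genes had a UMI in biotin positive bone, whereas Calcr was at 0 in biotin negative bone. Mmp9 alone was 279 to 796 CPM in biotin negative and 170 to 802 in biotin positive bone, so it made up most of the sum in every biotin negative sample; only 2.27% of its intracardiac UMIs lay in the osteoclast-gene-high cells. The sum ran from 1013 to 2014 CPM in biotin positive lung against 276 to 924 in biotin negative lung, and from 184 to 4640 against 986 to 1378 in IIA bone.

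In the other tissues the same fractions were compared separately. In lung, edgeR called 2254 of 12331 genes (18.3%) and 3 of the 5 members tested, all higher in the biotin positive fraction. Atp6v0d2 was 437, 687, 388 and 208 CPM in the positive replicates and 5.53, 21.5, 3.44 and 2.57 in the negative ones, a log2 difference of 5.31 ± 0.81 (adjusted p = 0.00410). The lowest positive sample was far above the highest negative one. Acp5 was 137, 262, 130 and 559 CPM against 56.1, 49.4, 72.4 and 53.3, without overlap, a log2 difference of 2.02 ± 0.46 (adjusted p = 0.0190). Leaving out biotin negative lung replicate 1 or 4 gave adjusted p values of 0.0564 and 0.0553. Tnfrsf11a was 19.8, 22.7, 12.2 and 15.9 CPM against 1.73, 4.84, 5.73 and 3.43, again without overlap, a log2 difference of 1.89 ± 0.35 (adjusted p = 0.00847). Nfatc1 (-0.43, adjusted p = 0.126) and Ocstamp (0.23, adjusted p = 0.847) did not pass. Without the low-count filter Tnfsf11 passed as lower (-4.02, adjusted p = 0.00595) and Dcstamp as higher (3.27, adjusted p = 0.0316).

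Alveolar macrophages moved with these lung values. They were 44.8% ± 27.7 of biotin positive and 0.303% ± 0.388 of biotin negative cells (SD, n = 4 each), and their 12 markers summed to 6488 to 28546 CPM against 1907 to 3704. Over the remaining lung cells Atp6v0d2 averaged 69.1 ± 78.3 against 4.26 ± 3.55 CPM, Tnfrsf11a 22.8 ± 15.7 against 3.88 ± 1.75, and Acp5 275 ± 269 against 57.1 ± 10.7 (n = 4 each). The positive values of Atp6v0d2 (18.8 to 186) and Tnfrsf11a (6.02 to 42.6) still lay above the negative ones, while Acp5 (33.2 to 647) overlapped with them. Without the osteoclast-gene-high cells the log2 difference was 1.10 ± 0.27 for Acp5, 5.30 ± 0.82 for Atp6v0d2 and -0.61 ± 0.14 for Nfatc1.

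In brain edgeR called 339 of 11064 genes (3.06%) and none of the 4 members tested. With 1 sample left out the genes called ranged from 3 to 758, so this share is not firm. Tnfrsf11a was 17.6, 63.5, 24.8 and 32.9 CPM in positive against 2.99, 8.43, 8.51 and 2.09 in negative samples, without overlap, and missed the threshold at a log2 difference of 2.40 ± 0.55 (adjusted p = 0.0529). With the multiplexing pool as a block 762 genes (6.89%) and 2 members were called: Tnfrsf11a, at 2.48 (adjusted p = 0.0125), and Acp5 as lower, at -0.73 (adjusted p = 0.0398). Acp5 was 14.5, 35.5, 26.3 and 15.98 CPM against 24.6, 36.2, 43.5 and 18.6, lower in 4 of 4 pairs with overlapping ranges. Microglia, which had 60.4 ± 9.78 CPM of Tnfrsf11a in the positive samples (n = 4) and nearly no Acp5, were 18.7% ± 19.9 of positive and 0.444% ± 0.254 of negative brain cells. Macrophages were 35.9% ± 31.9 of positive and 5.17% ± 4.34 of negative cells (n = 4 each), the positive ones mostly of cluster 30, and the 18 macrophage markers summed to 11477 to 47862 against 650 to 4235 CPM. The part of either class was not tested.

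In liver edgeR called 0 of 11854 genes (0% called), with 1571 at an unadjusted p under 0.05, and DESeq2 called 431, none of the 5 members tested. Tnfrsf11a was 16.5, 70.4, 17.2 and 6.22 CPM in positive and 5.19, 11.4, 10.3 and 3.13 in negative samples, higher in 4 of 4 pairs with overlapping ranges (log2 difference 1.71 ± 0.61, adjusted p = 0.296). Acp5 was 92.5, 595, 90.7 and 33.1 CPM against 47.8, 56.7, 79.8 and 33.3 (1.64 ± 0.72, adjusted p = 0.368). Replicate 2, in which macrophages were 83.6% of cells against 2.13% to 22.9% in the other 3 positive samples, was again the highest for both. Without it the log2 difference was 0.25 for Acp5 and 0.74 for Tnfrsf11a.

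Whether the fractions differed more in bone than in the other 3 tissues was tested as a difference of differences over all 32 samples. No gene passed: edgeR called 0 of 13963 (0% called), with 1057 at an unadjusted p under 0.05, and DESeq2 called 3, none of the 7 members tested. With the pool as a block edgeR called 13 genes and no member. The largest fitted values were Dcstamp at 4.62 ± 1.62, Ocstamp at 3.86 ± 1.39, Tnfsf11 at 3.38 ± 1.13 and Acp5 at 1.85 ± 0.99, with adjusted p of 0.584, 0.584, 0.584 and 0.684. Without biotin positive bone replicate 2 Acp5 turned to -1.18, and Ocstamp was 0.21, Dcstamp 2.64 and Tnfsf11 2.60. Tnfsf11 was 5.15 without biotin positive liver replicate 1.

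**Figure D4:**
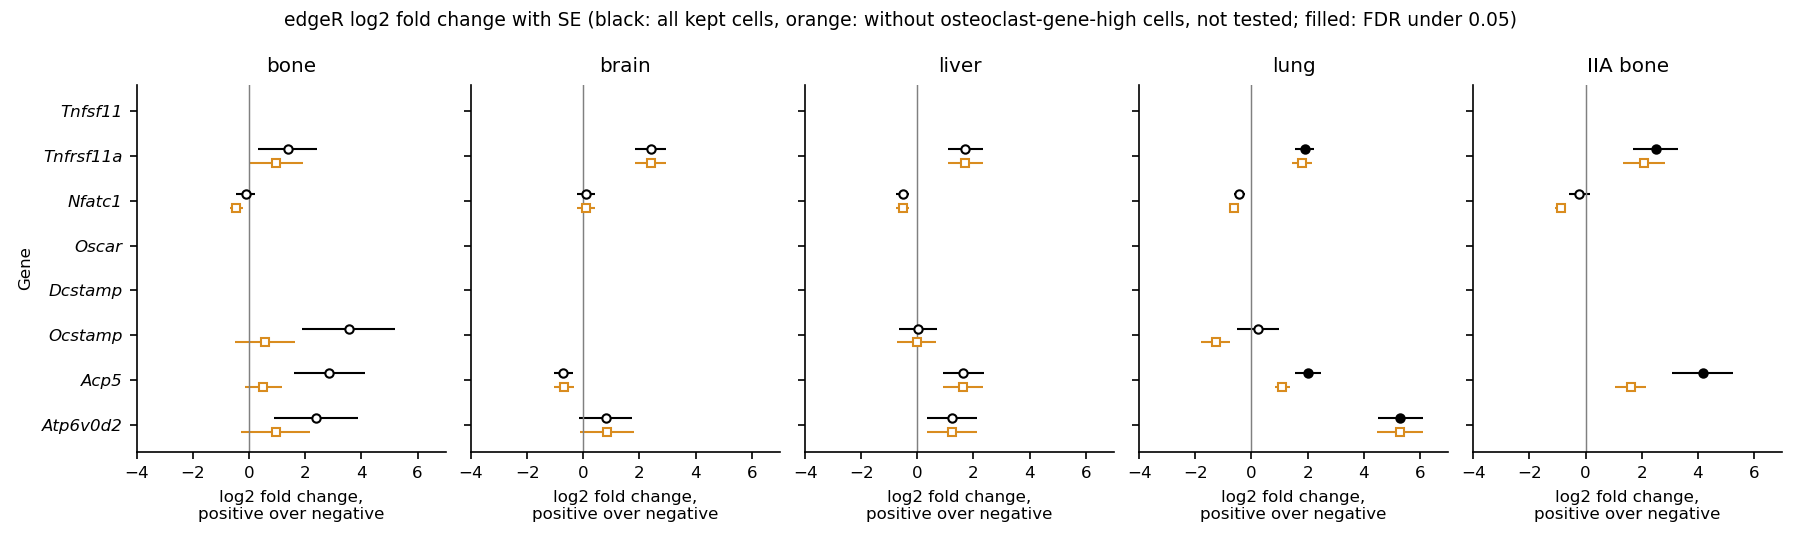
edgeR log2 difference, biotin positive over negative, with SE, for each gene in 4 intracardiac tissues and IIA bone; black circles are all kept cells, filled where the adjusted p was under 0.05, and open orange squares, which have no test, leave out the osteoclast-gene-high cells. Genes with no symbol had too few counts to be tested. Acp5 goes from 2.85 to 0.50 in bone and from 4.17 to 1.61 in IIA bone, while Atp6v0d2 in lung stays at 5.31 and 5.30.

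Untagged bone was then set against untagged brain, liver and lung. These are the same biotin negative samples as in the comparisons of fractions. edgeR called 2202 of 13096 genes (16.8%) and 4 of the 6 members tested, all lower in bone. Acp5 was 38.0, 19.2, 13.4 and 6.91 CPM in bone and ranged from 18.6 over a median of 48.6 to 79.8 in the other 12 samples, a log2 difference of -1.20 ± 0.28 (adjusted p = 0.0131). Ocstamp was at most 0.673 in bone and 0.419 to 5.35 elsewhere (-2.56 ± 0.58, adjusted p = 0.0121). Both genes overlapped between bone and the other tissues, Acp5 through bone replicates 1 and 2. Tnfsf11 differed by -2.78 ± 0.62 (adjusted p = 0.0111) and Nfatc1 by -0.53 ± 0.17 (adjusted p = 0.0440), while Tnfrsf11a (-1.31, adjusted p = 0.0631) and Atp6v0d2 (-0.76, adjusted p = 0.557) did not pass. With the pool as a block Tnfrsf11a passed as well (-1.18, adjusted p = 0.0308), among 37.2% of genes called. The Nfatc1 call was the least stable: it was lost in 12 of 16 fits that each left out 1 sample (adjusted p from 0.0524 to 0.15) and without the low-count filter (-0.45, adjusted p = 0.0865). Without that filter edgeR also called Dcstamp, not tested in the main fit, as lower in bone (-4.09, adjusted p = 0.0201). Without biotin negative bone replicate 4 none of the 4 genes passed, and without replicate 3 only Tnfsf11 did. All genes called fell from 2202 to 400 and 484 in these fits and to 904 without bone replicate 2, and rose to 3443 without replicate 1.

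Macrophages were 0.447% ± 0.205 of untagged bone cells against 5.17% ± 4.34, 5.62% ± 4.56 and 3.17% ± 0.809 in brain, liver and lung (n = 4 each). Neutrophils, which had little or none of these genes but Nfatc1, were 43.7% ± 20.0 of untagged bone cells against 18.2% ± 12.1, 7.28% ± 5.06 and 2.30% ± 1.5. B cells, with 172 CPM of Acp5, were 7.94% ± 5.08 against 10.6% ± 5.43, 17.2% ± 6.27 and 12.4% ± 7.67. The part of these shares in the differences was not tested. Restricted to monocytes, edgeR called 433 of 9789 genes (4.42%) and none of 5 members tested, the nearest being Ocstamp (-1.61 ± 0.63, adjusted p = 0.180) and Acp5 (-0.71 ± 0.28, adjusted p = 0.195). With the pool as a block 11.9% of genes and Acp5 passed (-0.65, adjusted p = 0.0233). The monocytes came from different clusters by tissue: cluster 1, with 1.11 CPM of Ocstamp and 23.3 of Acp5, held 1.73% of those of lung, against 51.6% for bone, 37.3% for brain and 53.8% for liver, and cluster 2, with 6.37 and 30.3 CPM, held 76.9%, 30.9%, 43.3% and 33.0%. In neutrophils, 59 of 6511 genes (0.906%) were called over 15 samples (245 with the pool as a block), and only Nfatc1 was testable (0.07 ± 0.18, adjusted p = 0.972). Neutrophil cluster 8 led in bone (41.2%), cluster 9 in brain (48.1%) and liver (38.0%) and cluster 12 in lung (61.3%).

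Among tagged samples, bone against the other tissues gave 4048 of 12843 genes (31.5%) and none of 6 members. Tnfrsf11a came closest, lower in bone at -1.93 ± 0.79 (adjusted p = 0.0726). It passed with the pool as a block (-2.49, adjusted p = 0.00908), as did Atp6v0d2 (-2.33, adjusted p = 0.0431), among 37.1% of genes called. Without the osteoclast-gene-high cells its difference was -2.32 ± 0.76. Acp5 was 0.66 ± 0.87 (adjusted p = 0.581) and turned to -2.32 (adjusted p = 0.0367) without biotin positive bone replicate 2. Tnfrsf11a was then -3.41 (adjusted p = 0.00651) and Atp6v0d2 -4.40 (adjusted p = 0.00354). The make-up of the tagged samples differed by tissue. Macrophages were 12.8% ± 17.2 of tagged bone cells against 35.9% ± 31.9, 31.2% ± 36.0 and 10.5% ± 4.81 in brain, liver and lung, and neutrophils 33.0% ± 12.2 against 7.63% ± 6.69, 6.22% ± 6.19 and 1.12% ± 0.838 (n = 4 each). Alveolar macrophages were 0.184% ± 0.335 in bone and, as above, 44.8% ± 27.7 in lung. The part of these classes was not tested.

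The IIA bone samples, made with a different library chemistry (5′ ends in place of 3′), were analysed on their own and are set beside the others without a test. Much of the transcriptome differed between fractions there: edgeR called 6335 of 12625 genes (50.2%), the share against which called members are to be read. Of the 3 members with enough counts, Acp5 and Tnfrsf11a rose in the biotin positive fraction. Acp5 ran from 9.76 over a median of 76.9 to 1200 CPM in the 6 positive and from 9.61 over 13.7 to 25.5 in the 6 negative samples (log2 difference 4.17 ± 1.10, adjusted p = 0.00755). Positive replicates 1 to 4, at 569, 122, 1200 and 32.1, lay above every negative sample, whereas replicates 5 and 6 lay inside the negative range. Tnfrsf11a ran from 1.97 over 23.7 to 58.3 against 2.48 over 3.94 to 6.98 (2.50 ± 0.80, adjusted p = 0.0207), with replicates 1 to 3 high and replicates 4 to 6 at 3.37 or less. Nfatc1 did not pass (-0.22, adjusted p = 0.654). With the replicate number as a block neither call held: Acp5 was 2.14 (adjusted p = 0.140) and Tnfrsf11a 1.61 (adjusted p = 0.0978).

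The other genes followed these 3 samples. Ocstamp was 22.4, 5.48 and 59.6 CPM in positive replicates 1 to 3 and at most 0.505 in replicates 4 to 6, against at most 0.747 in negative samples. Dcstamp was 18.0, 6.85 and 62.8 against at most 0.623, Oscar 8.60, 1.37 and 19.3 against at most 0.111, and Atp6v0d2 69.1, 33.4 and 160 against at most 0.831. Tnfsf11 was 7.82, 2.46 and 4.79 against at most 1.04. Macrophages were 16.6%, 52.4% and 38.7% of these 3 samples, 4.42% to 4.87% of the other 3 positive samples and 0.456% to 4.05% of the negative ones. The 14 stromal and osteoblast-lineage markers also ranged most widely there, from 94.2 to 3799 CPM against 134 to 291. The part of either was not tested. Without the osteoclast-gene-high cells, Acp5 had a log2 difference of 1.61 ± 0.56, Tnfrsf11a of 2.09 ± 0.74 and Nfatc1 of -0.88 ± 0.19.

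Within the monocytes and macrophages of IIA bone all 3 tested members rose in the biotin positive fraction, where edgeR called 2958 of 9553 genes (31%). Acp5 had a log2 difference of 5.6 ± 0.91 (adjusted p = 0.000342), Tnfrsf11a of 2.46 ± 0.36 (adjusted p = 0.000154) and Nfatc1 of 1.45 ± 0.47 (adjusted p = 0.0283). In macrophages alone, Acp5 was 122 to 3031 CPM in positive and 3.54 to 176 in negative samples, and Tnfrsf11a 41.8 to 226 against 0 to 64.8, both with some overlap (n = 6 each). Without the osteoclast-gene-high cells the differences were 3.77 ± 0.53 for Acp5, 2.21 ± 0.30 for Tnfrsf11a and 0.45 ± 0.33 for Nfatc1. The Nfatc1 call was lost with the replicate number as a block (0.97, adjusted p = 0.0916), while the other two held. It was also lost when any 1 of 5 libraries was left out, positive replicates 1 and 3 and negative replicates 1, 5 and 6, with values of 0.90, 1.29, 1.46, 1.42 and 1.40 and adjusted p from 0.0533 to 0.0803. Macrophages were the larger part of these phagocytes in the positive fraction (836 macrophages and 116 monocytes, against 347 and 1699), so level and composition cannot be told apart.

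Other genes of the pathway, 64 in 5 lists, moved unevenly. In IIA phagocytes 28 rose and 6 fell of 58 tested, 58.6% against 31% of all genes, with a median log2 difference of 0.50 against -0.02 over all genes. Of the resorption and acid secretion list 11 rose and 0 fell of 15, led by Ctsk (7.91 ± 1.31), the membrane collagenase Mmp14 (4.27 ± 0.64), Mmp9 (3.30 ± 0.84) and the carbonic anhydrase Car2 (2.48 ± 0.73). Of the fusion and cytoskeleton list 7 rose and 0 fell of 9, led by the creatine kinase Ckb (2.90 ± 0.40), Adam8 (2.44 ± 0.63), the podosome scaffold Sh3pxd2a (2.11 ± 0.26) and the integrin gene Itgav (1.68 ± 0.31). Of the transcription factor list 5 rose and 2 fell of 10: Prdm1 (2.31), which represses inhibitors of osteoclast formation, and Mitf (1.65) were among those that rose, and Irf4 fell (-2.15). The ligand and signalling list gave 2 and 2 of 13, with Jdp2 (2.02) and the receptor gene Csf1r (0.42) higher and Cyld (-0.54) and Map3k7 (-0.48) lower. The costimulation list gave 3 and 2 of 11, with Trem2 (2.18), Fcgr3 (1.04) and the kinase Tec (0.76) higher and Plcg2 (-0.94) lower. The osteoclast-gene-high cells held 91.7% of all IIA Ctsk and 60.8% of all Ckb UMIs. Without them the differences were 4.59 ± 0.80 for Ctsk, 0.57 ± 0.42 for Mmp9, 1.65 ± 0.28 for Ckb and 1.86 ± 0.87 for Car2, while Mmp14 (4.03 ± 0.56) and Trem2 (2.31 ± 0.18) moved little, and the median over the 58 genes was 0.30 against 0.0028 over all genes.

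In lung 11 rose and 4 fell of 59, 25.4% against 18.3% of all genes. The resorption list had 7 and 0 of 15, with Ctsk at 5.55 ± 1.02, Mmp14 at 1.90, the sorting nexin Snx10 at 1.44 and the pump subunit Atp6v1c1 at 1.32, all of which were measured beside the alveolar macrophage share given above. Cd9 (2.91), Sirpa (1.56), Mitf (1.90) and Trem2 (1.20) rose as well, and Itgb3 (-2.32), Irf4 (-1.68), Nfatc2 (-1.40) and Traf3 (-0.62) fell. In brain 2 rose (Trem2 at 3.06, Csf1r at 2.45) and 1 fell (Pira2 at -1.70) of 59, 5.08% against 3.06% of all genes. In bone and in liver, fraction against fraction, 0 of 60 and 0 of 59 passed.

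Over all IIA cells 10 rose and 14 fell of 62, a share of 38.7% against 50.2% of all genes; the difference of these shares was not tested. Resorption and fusion genes were among those that rose, with Ctsk at 6.93, Mmp14 at 3.12, Ckb at 3.10 and the kinase Src at 2.51, as were Trem2 (2.38), Mitf (1.54) and Prdm1 (1.43). The costimulation genes Pira2 (-1.52), Tyrobp (-1.15) and Lilrb4a (-0.90) fell, as did the transcription factor Tfeb (-1.21), the pump subunit Atp6v0a1 (-1.08), the vesicle adaptor Plekhm1 (-0.89) and, by less, Rela (-0.54), Cyld (-0.45) and Ppp3ca (-0.38).

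Untagged bone had 1 gene higher and 13 lower of 60 against the other tissues, 23.3% against 16.8% of all genes, with a median of -0.33 against -0.01 over all genes. Among the lower ones were Mmp14 (-2.92), Ckb (-2.02), Fos (-2.01), Prdm1 (-1.73), the fusion gene Adam12 (-1.52), Sirpb1a (-1.39), Nfatc2 (-1.25), the growth factor gene Csf1 (-1.24) and its receptor gene Csf1r (-1.23), Relb (-1.08) and Itgav (-0.74), and the anion exchanger gene Slc4a2, which serves acid secretion, was higher (0.41). Tagged bone had 2 higher (Traf3 at 0.74, Plcg2 at 0.54) and 9 lower of 61, 18.0% against 31.5% of all genes. The lower ones were Trem2 (-2.56), Csf1r (-2.10), Fos (-1.76), Mitf (-1.55), Relb (-1.09), Cd44 (-0.94), Fcgr3 (-0.83), Atp6v0a1 (-0.82) and Irf8 (-0.71). In untagged monocytes 5 of 56 were lower in bone (8.93% against 4.42% of all genes), among them Fos (-1.71), Lilrb4a (-0.70), Tyrobp (-0.42) and Fcer1g (-0.38), and in neutrophils 1 of 45, Fos (-1.71).

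Genes with the most similar pattern were sought over 67 profiles of class, tissue and fraction with at least 50 cells, as Pearson correlations of log2(CPM + 1); profiles share libraries and depth, so these are descriptions. Tnfsf11 was most like Cd40lg (r = 0.892), Actn2 (0.888) and Cd163l1 (0.885), and Atp6v0d2 most like Ctsk (0.813) and Ahnak2 (0.747). Tnfrsf11a was nearest to Spire1 (0.847), Cyfip1 (0.846) and Sh3pxd2b (0.842). Ocstamp was nearest to Tubb6 (0.788), Lpar1 (0.782) and Timp1 (0.779), and Dcstamp to Fxyd2 (0.777), Fndc7 (0.744) and Htra3 (0.705). Nfatc1 was nearest to Gem (0.770), Sorcs2 (0.749) and Chd2 (0.740), and Acp5 to Insl6 (0.752), Cisd3 (0.731) and Lpxn (0.722). Oscar had too few UMIs for a profile.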

How the data were processed

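The deposited matrices hold whole-number counts of UMIs per gene and cell, made by the authors with cellranger 6.1.2 (intracardiac, 3′, demultiplexed by CellPlex) or 7.1.0 (IIA, 5′), per the file headers; the submitters' processing notes name mm10, Cell Ranger and Seurat. IIA cells were assigned here by hashtag (at least 10 counts and 3 times the next); feature names were matched to the hashtag key by number. Of 57065 intracardiac and 22685 assigned IIA barcodes, 55366 and 22362 had at least 500 UMIs, 200 genes and at most 15% mitochondrial UMIs. Samples held 482617 to 44834665 UMIs, and intervals and floors cover counting error only.

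Cells were clustered with scanpy 1.11.5 (2000 variable genes, 30 components, 15 neighbours, Leiden resolution 1), and clusters were named from marker lists among their leading genes. Doublets were kept, except in an alternative without the 5% highest Scrublet scores. UMIs were summed per sample, or per sample and class with at least 10 cells, and tested with edgeR 4.0.16 (R 4.3.3; quasi-likelihood, TMM, Benjamini-Hochberg over all genes that passed the low-count filter, threshold 0.05), with DESeq2 1.42.0 as an alternative. The fit was tested on simulated data. Other alternatives were RLE normalization, no low-count filter, a replicate block, no mitochondrial limit, hashtag ratio 5, Leiden 0.6, leaving out each sample, and leaving out the osteoclast-gene-high cells, which was chosen after seeing the data.

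Same-numbered intracardiac samples were taken as paired by multiplexing pool: they carry different tags and shared 0 barcodes over 112 pairs, against 341 over 384 other pairs. Their deviations correlated at a median r of 0.313 to 0.495 within a tissue (lowest -0.0916, in lung). In IIA bone the median r was 0.284 and the lowest 0.0778, under the 0.1 asked for, and the numbers were not taken as pairs. Lung was under that limit too, and its samples were paired by their pool. The correlations do not settle whether the IIA numbers are pairs, so IIA calls that the block removes are not firm.

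The members and gene lists were chosen with earlier results of these data known. All 8 members are named; a pathway gene is named where it passed, at most the 4 largest per list and comparison. Genes that this rule or the search for similar patterns would name beyond those printed are not reported here.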

Additional observations from a re-analysis of the deposited data

Results flagged for a closer look

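Of 64 sets of a gene and a group of 4 or 6 samples tested for a sample far from the others, 9 had one. Chance gives about 1 in 20 for normally spread values, which CPM of low counts need not follow, so nothing is read from the number. These are not separate tests, since the genes share samples and cells. Numbers of osteoclast-gene-high cells, which a rule on 4 of the same genes set, are given beside them and not counted. Biotin positive bone replicate 2 stood apart for 5 of them: Acp5 at 589.7 CPM (next highest 35.76), Atp6v0d2 at 64.58, Ocstamp at 22.52, Dcstamp at 8.058, and Oscar at 5.851. It held 13 osteoclast-gene-high cells. Biotin positive liver replicate 2 stood apart for Acp5, at 594.6 CPM (next highest 92.49), and held 3 such cells. IIA biotin positive replicate 3 stood apart for Dcstamp, at 62.84 CPM, and held 38 such cells. Biotin positive lung replicate 4 stood apart for Oscar (4.993 CPM), and biotin negative lung replicate 2 for Atp6v0d2 (21.5 CPM).

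Acp5 was higher in the biotin positive sample of all 4 lung pairs, by at least 57.43 CPM, and lower in all 4 brain pairs, by at least 0.75 CPM (positive minus negative at most -0.75). The difference between the tissues was not tested.

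The 3981 IIA barcodes without an assigned hashtag, which entered no comparison, held more of 5 members than any IIA biotin negative sample: 46.23 CPM of Acp5 (highest negative sample 25.5), 3.53 of Atp6v0d2 (0.8306), 1.115 of Dcstamp (0.6225), 1.27 of Oscar (0.1109) and 1.92 of Ocstamp (0.747). These barcodes can come from either fraction, and all assigned IIA cells pooled held 98.8, 12.3, 4.48, 1.42 and 4.31 CPM of these genes. Each is above the level in the unassigned barcodes, for Oscar within the counting interval of the latter (exact Poisson, 0.911 to 1.72).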

How the results depend on the processing

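Of 388 fitted differences of members under alternatives other than leaving out a sample, 349 kept direction and side of the threshold, 16 newly passed, 5 no longer passed and 18 turned; the cause was not tested. Counts of members called moved by over 1.5 times as follows. Nothing about the members is read from them, since the share of all genes called is not given for most of these fits. In the main fits that share was 3.06% in brain, 18.3% in lung, 50.2% in IIA bone, 0.124% in bone phagocytes and 31% in IIA phagocytes. With the replicate block it was 6.89% in brain, 37.1% for tagged bone and 11.9% in monocytes. Without the low-count filter the members called were 1 in brain, 5 in lung, 6 in IIA bone, 2 in bone phagocytes and 7 in IIA phagocytes (0, 3, 2, 0 and 3 with it). With the replicate block they were 2 in brain, 2 for tagged bone against other tissues and 1 in monocytes (0 each without it), and 0 in IIA bone, where Acp5 was 2.14 (adjusted p = 0.140) and Tnfrsf11a 1.61 (adjusted p = 0.0978). Smaller moves were from 3 to 2 in IIA phagocytes and from 4 to 5 for untagged bone with the block, and from 4 to 5 for untagged bone with DESeq2 (Tnfrsf11a, adjusted p = 0.0169). DESeq2 called 1 in brain, 1 for tagged bone against other tissues and 1 in bone phagocytes, Leiden 0.6 gave 1 in bone phagocytes, and leaving out the high cells 1 for tagged bone, a count from which nothing is read, since the rule that chose these cells uses the members. Leaving out each sample gave 0 to 1 in brain, 2 to 5 in lung, 0 to 5 for untagged and 0 to 3 for tagged bone against other tissues, 0 to 1 in bone phagocytes and 2 to 5 in IIA phagocytes.

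Signs turned for Ocstamp in liver (-0.0249 without doublets, -0.0212 without high cells, -0.0190 with DESeq2, -0.0354 without the filter, -0.39 with the block) and lung (-1.27 without high cells, -0.31 with the block), and for Nfatc1 in brain (-0.0036 without the filter), in neutrophils (-0.37 without the mitochondrial limit) and in bone phagocytes (0.73 at Leiden 0.6). For tagged bone against other tissues, Acp5 was -1.36 without high cells and -0.62 with the block, Dcstamp -0.19 without doublets and -1.10 without high cells, and Ocstamp -1.09 without high cells and -0.0721 with the block. In the difference of differences, without high cells, Acp5 was -0.20 and Nfatc1 -0.13.

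Leaving out each sample turned signs over these ranges. In bone, Acp5 ran from -0.22 to 3.28, Nfatc1 from -0.56 to 0.11, Tnfrsf11a from -0.22 to 1.86, Atp6v0d2 from -1.29 to 3.54 and Ocstamp from -0.17 to 4.00. In brain, Nfatc1 ran from -0.14 to 0.28 and Atp6v0d2 from -0.28 to 1.88, and Ocstamp from -1.30 to 0.36 in liver and -0.68 to 0.61 in lung. For tagged bone, Acp5 ran from -2.32 to 1.14, Dcstamp from -1.40 to 0.94 and Ocstamp from -2.31 to 1.90. In the difference of differences, Acp5 ran from -1.18 to 2.31, Nfatc1 from -0.25 to 0.37 and Atp6v0d2 from -3.70 to 0.99, and in monocytes Atp6v0d2 from -1.27 to 0.39. Oscar, Dcstamp and Tnfsf11 were too low to be tested in most comparisons.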
